A study of Homo sapiens with 9 samples.

Results

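The members described here are 55 genes of human chromosome 7, sampled along both arms and measured in U87 cells and in 2 irradiated lines derived from them. The rule that chose them took the symbols of a group found higher than in U87 in an earlier look at the same values, so the differences from U87 below are a description of the choice and were not tested. Of the 60606 genes in the deposited table, 22909 had a mean TPM over 1 and 54 of the 55 members were among them. SNX10, a sorting nexin, had a mean of 0.0163 TPM and is only listed. The member just inside this limit was MAD1L1, at 1.01 TPM. TPM counts, per 1000000 transcripts of a library, those of 1 gene, with gene length taken into account, and the authors deposited it as log2(TPM + 1). Means are given with the SD over the libraries of a line (n = 3). There were 26 members on the short arm, 7p, of which 25 were measured above the limit, and 29 on the long arm, 7q.

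RNA of 3 cell lines was sequenced, with 3 libraries each. U87 (U87MG) is an established human glioblastoma line, grown in medium with 10% fetal bovine serum. GSCs are glioblastoma stem cells made from U87 without serum, in medium that holds 20 ng/ml of EGF and 20 ng/ml of bFGF, and they received 5 Gy of radiation 13 times. Diff cells were derived from the irradiated GSCs by returning them to 10% serum, followed by culture of cells picked from clonal colonies. All 3 lines thus stem from U87, and both irradiated lines share the same 13 doses. U87 was not irradiated, so irradiation cannot be told apart from the passage through stem cell culture. In Diff cells it also cannot be told apart from the picking of colonies, and GSCs differ from the other lines in their medium. Nothing in the labels says that the libraries of a line came from separate cultures, so p-values measure only the spread between these libraries.

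Chromosome 7 carries EGFR on its short arm and MET and BRAF on its long arm, and gain of the whole chromosome is among the most common chromosome changes of glioblastoma. Members of such a broad group have no single function. They include a growth factor receptor, kinases, chromatin regulators, mitochondrial enzymes and membrane proteins that lie on the same chromosome. The table holds RNA values, and DNA was not measured.

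Promoters of 4 members are shown. EGFR was taken as the best known gene of the group and marks no end of the range described below. HDAC9 was the farthest above U87 and FAM20C the farthest below in the mean of both irradiated lines. LIMK1 had the largest increase from GSCs to Diff cells. Each line gives the 250 bases before the outermost RefSeq start of the gene in GRCh38.p14, 5′ to 3′ on the strand of the gene, with capitals for the GC box GGGCGG or the CCAAT box CCAAT on either strand, of which no matches overlap here.
EGFR, chr7:55018767-55019016, plus strand: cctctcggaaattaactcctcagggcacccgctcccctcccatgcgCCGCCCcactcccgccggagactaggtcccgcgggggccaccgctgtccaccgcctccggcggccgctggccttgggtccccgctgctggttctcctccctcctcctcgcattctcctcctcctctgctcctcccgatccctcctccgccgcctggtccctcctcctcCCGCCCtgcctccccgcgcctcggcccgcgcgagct
HDAC9, chr7:18086575-18086824, plus strand: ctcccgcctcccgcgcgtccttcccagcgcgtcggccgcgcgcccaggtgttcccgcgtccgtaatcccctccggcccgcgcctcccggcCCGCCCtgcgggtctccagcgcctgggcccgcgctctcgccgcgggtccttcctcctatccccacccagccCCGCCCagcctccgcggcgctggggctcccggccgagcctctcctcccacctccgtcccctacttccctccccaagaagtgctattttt
FAM20C, chr7:192321-192570, plus strand: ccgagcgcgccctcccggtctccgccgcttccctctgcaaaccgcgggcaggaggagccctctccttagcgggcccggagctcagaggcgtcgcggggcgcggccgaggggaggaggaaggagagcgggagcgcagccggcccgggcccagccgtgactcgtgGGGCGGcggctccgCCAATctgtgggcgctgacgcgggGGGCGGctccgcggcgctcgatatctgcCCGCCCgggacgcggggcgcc
LIMK1, chr7:74083554-74083803, plus strand: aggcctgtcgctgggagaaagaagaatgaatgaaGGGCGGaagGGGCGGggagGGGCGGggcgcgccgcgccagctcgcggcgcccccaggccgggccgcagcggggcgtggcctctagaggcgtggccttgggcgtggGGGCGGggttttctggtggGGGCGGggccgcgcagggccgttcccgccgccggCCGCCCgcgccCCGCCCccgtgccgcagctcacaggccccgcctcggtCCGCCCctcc
None of the 4 windows held an exon of GENCODE 29. The LIMK1 window lies within an intron of the longer GENCODE 29 gene model, and the other windows lie before the first base of theirs. GC boxes, the letters that transcription factors of the Sp family bind, were found 2 times before EGFR, 2 times before HDAC9, 3 times before FAM20C and 8 times before LIMK1. RefSeq windows were matched for 40 of the 55 members. A GC box was present in 28 of these 40 (70%), beside 66.4% of 9788 windows of the same length before protein-coding genes with a mean TPM over 1. A CCAAT box was present in 40% of the members' windows and in 35.1% of all windows. The TATA box TATAAA was in 0 of the 40 windows and in 5.75% of all windows, where 0 says only that these letters were not in this stretch. CG dinucleotides numbered 23.5 per member window at the median, with a range of 4 to 48, and 21 over all windows. The windows of EGFR, HDAC9, FAM20C and LIMK1 held 25, 32, 38 and 34 of them, so the windows of HDAC9, above U87, and of FAM20C, below it, were both above this median.

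The members were higher than U87 at the median in both irradiated lines. The difference of mean log2(TPM + 1) values had a median of 0.39 over the 54 members in GSCs and of 0.38 in Diff cells, and 45 of the 54 lay above 0 in each line. Over all 22909 genes the medians were 0.02 and -0.04. The other 522 protein-coding genes of chromosome 7 had a median of 0.47 in both lines, with 79.9% above 0 in GSCs and 83.1% in Diff cells, so the median of the members lay below that of the rest of their chromosome. Protein-coding genes of the other nuclear chromosomes, 11505 in number, had medians of -0.02 and -0.01. These values were used in choosing the members and carry no test.

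Among the other chromosomes the medians ran from -0.17 on chromosome 10 to 0.11 on chromosome 18 in GSCs, and from -0.10 on chromosome 10 to 0.10 on chromosome 11 in Diff cells. Both comparisons share the U87 libraries, so their likeness is not a repeated measurement. Within the libraries, the median of the members against the U87 mean was 0.39, 0.35 and 0.50 in the GSCs libraries and 0.41, 0.34 and 0.38 in the Diff libraries. In the U87 libraries it was 0.04, -0.02 and -0.02. No irradiated library overlapped with a U87 library in this median, and the third GSCs library was the highest of the 9. The other protein-coding genes of chromosome 7 ran from 0.45 to 0.51 in the GSCs libraries and from 0.42 to 0.49 in the Diff libraries, and those of the other chromosomes from -0.05 to 0.03.

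Member by member, the label of genes raised in irradiated lines held for most but not all. In GSCs 35 of 54 members were higher in every library than in every U87 library (64.8%, beside 29.3% of all genes), 7 were lower in every library (26.6% of all genes) and 12 overlapped. In Diff cells 43 were higher (79.6%, beside 26.2% of all genes), 7 were lower (29.0% of all genes) and 4 overlapped. In 31 members (57.4%) both irradiated lines lay above U87 without overlap, as in 17.7% of all genes and 57.7% of the other protein-coding genes of chromosome 7. In 5 members (9.26%), FAM20C, SEC61G, CAV2, CAV1 and KMT2C, both lay below, as in 18.1% of all genes and 6.13% of the others of chromosome 7. GLCCI1, RAPGEF5, EGFR and PODXL had a difference above 0 in GSCs and below 0 in Diff cells. HNRNPA2B1, ANLN, YWHAG and COPS6 had the reverse. PON2 in GSCs and PODXL in Diff cells lay so near 0 that their sign changed with the scaling of the libraries.

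**Figure D1:**
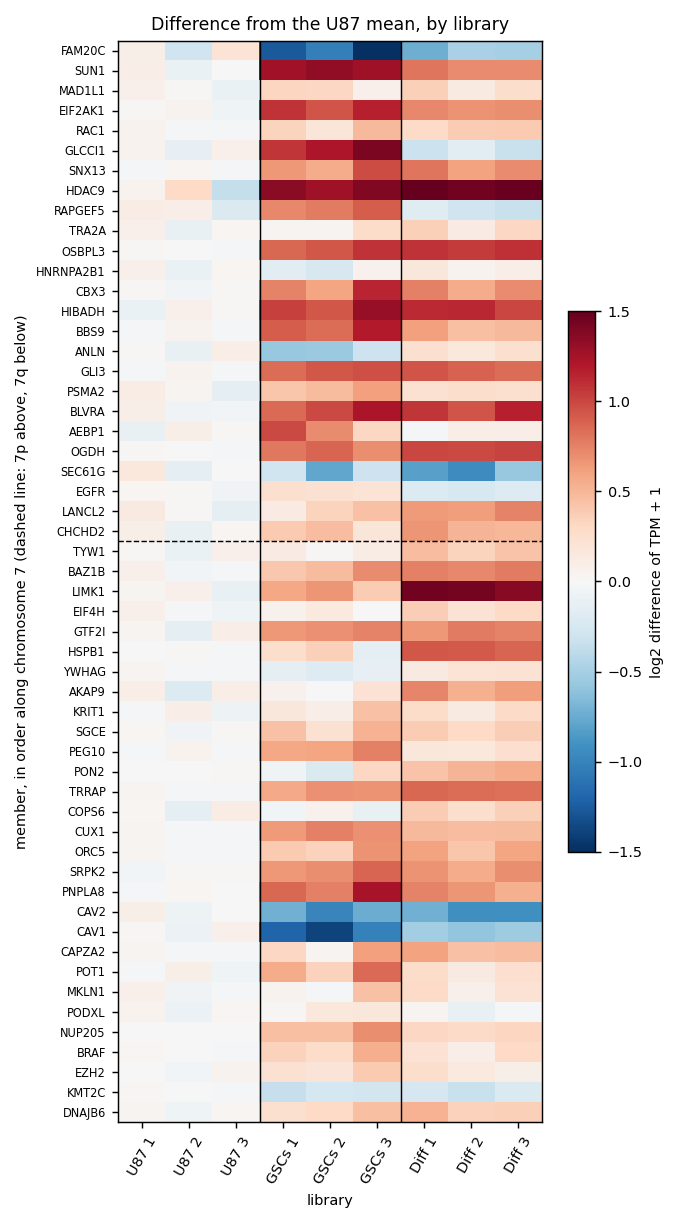
Log2 difference of TPM + 1 from the U87 mean (color) for the 54 members (rows, in order along chromosome 7, 7p above the dashed line) in the 9 libraries (columns). Most rows are red in all 6 irradiated libraries, and FAM20C, SEC61G, CAV2, CAV1 and KMT2C are blue in all 6.

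The other genes were above U87 at the median in every part of the chromosome. The 522 other protein-coding genes were divided in order into 8 parts of 65 or 66 genes, whose medians ran from 0.29 to 0.65 in GSCs and from 0.29 to 0.60 in Diff cells. The lowest part in both lines was the seventh, from 127346790 to 140479569 on 7q, where the members MKLN1, PODXL and NUP205 lie and had medians of 0.16 and 0.20. Members on 7p had medians of 0.73 in GSCs and 0.52 in Diff cells, and members on 7q of 0.32 and 0.35. Medians of the other genes were taken by part and not by arm, and part 3 spans both arms. In GSCs they were 0.40 and 0.58 in parts 1 and 2, on 7p. Parts 4 to 8, on 7q, had 0.65, 0.45, 0.46, 0.29 and 0.50, so 7p and 7q overlapped. In Diff cells parts 1 and 2 had 0.54 and 0.58, above the 0.29 to 0.52 of parts 4 to 8. The members of part 1, at the end of 7p, had a median of 0.80 in GSCs. Across the 54 members, the difference in GSCs had a Spearman correlation of -0.34 with position from 7p to 7q and of -0.13 with the log2 mean TPM. In Diff cells the correlations were -0.21 and 0.19. These are descriptions across genes that share their libraries.

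**Figure D2:**
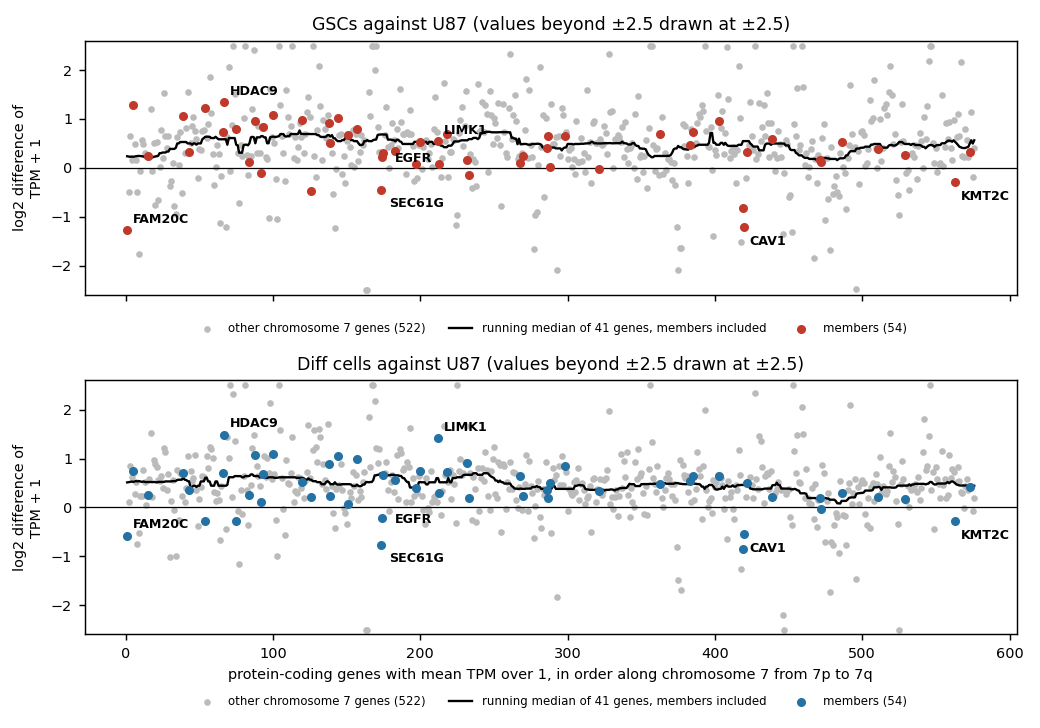
Log2 difference of TPM + 1 (vertical axis) of protein-coding genes in order along chromosome 7 (horizontal axis) in GSCs and in Diff cells against U87, with the 54 members in color, the 522 other genes in gray and a running median as a line. The line stays above 0 along both arms, and FAM20C, SEC61G, CAV1 and KMT2C lie below it in both panels.

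Diff cells against GSCs is the comparison that the choice of members did not use, and it was tested with limma over all 22909 genes at an adjusted p under 0.05. The median of the 54 members was 0.02, beside -0.06 over all genes and -0.02 over the other protein-coding genes of chromosome 7. Of the members, 14 rose from GSCs to Diff cells (15.0% of all genes did), 11 fell (19.8% of all genes) and 29 were not called. The 25 called members were 46.3% of the 54, while 34.8% of all genes, 48.5% of the other protein-coding genes of chromosome 7 and 44.4% of protein-coding genes elsewhere were called. The share of members called was thus near that of other protein-coding genes. With a log2 difference over 1 also required, 2 members were left, GLCCI1 and RAPGEF5 (8.01% of all genes passed). Every library of one line lay above every library of the other in 30 members. Diff cells were higher in 17 (31.5%, beside 19.8% of all genes) and GSCs in 13 (24.1%, beside 27.0% of all genes). Of the other protein-coding genes of chromosome 7, 29.7% had Diff cells higher in this way and 31.2% had GSCs higher. For protein-coding genes elsewhere the shares were 28.0% and 29.4%.

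**Figure D3:**
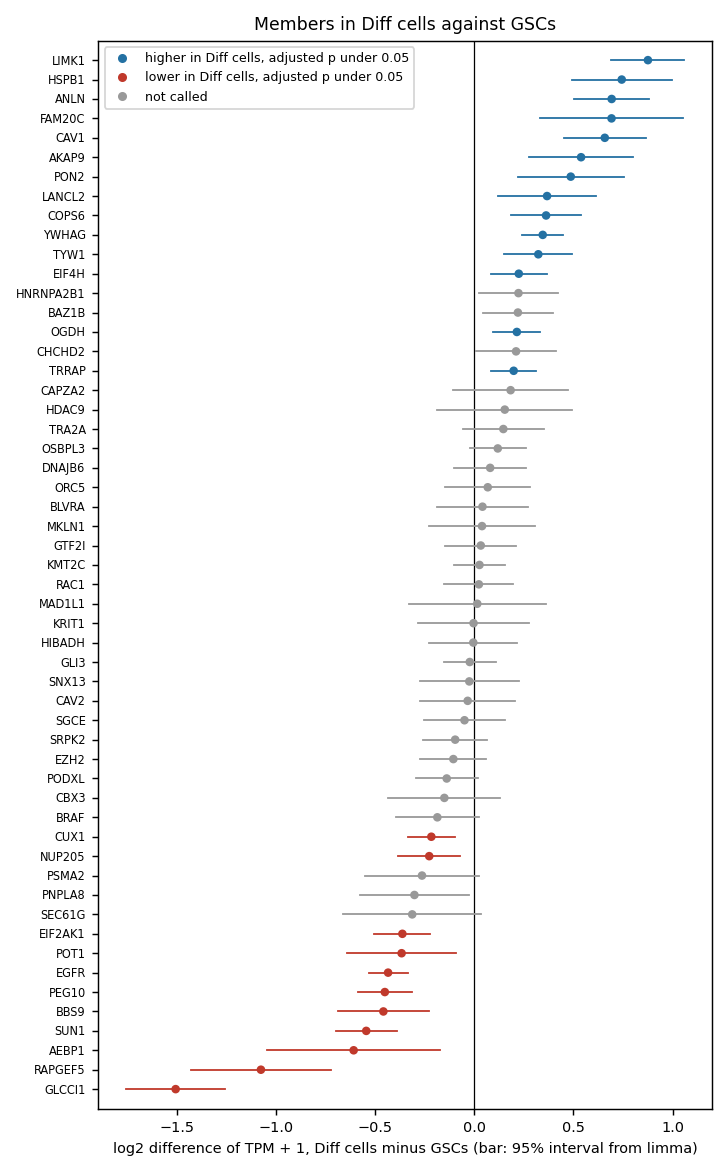
Log2 difference of TPM + 1, Diff cells minus GSCs (horizontal axis), for the 54 members in order of size (rows), with the 95% interval of limma as a bar. LIMK1 is at the top at 0.88 and GLCCI1 at the bottom at -1.51, and 14 members rose (blue), 11 fell (red) and 29 were not called (gray).

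Growth factor receptor and kinase signaling held 12 members, with medians of 0.36 in GSCs and 0.29 in Diff cells against U87. From GSCs to Diff cells 4 of the 12 rose (15.0% of all genes), 3 fell (19.8% of all genes) and 5 were not called. EGFR, the receptor tyrosine kinase for epidermal growth factor, lies on 7p from 55019021 to 55211628 in GENCODE 29 (GRCh38). It was measured at 117, 116 and 109.86 TPM in the U87 libraries, 135, 134 and 132 TPM in the GSCs libraries and 99.1, 97.04 and 100.04 TPM in the Diff libraries. The GSCs libraries all lay above those of U87 and the Diff libraries all below, with differences of 0.23 and -0.21. EGFR fell from GSCs to Diff cells, with a log2 difference of -0.44 (SE 0.0432, limma adjusted p = 0.00012). GSCs grew with EGF in the medium and Diff cells with serum, and the part of the medium in this difference cannot be told apart from that of the line.

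LIMK1, the kinase that inactivates cofilin and so stabilizes actin filaments, was measured at 255, 262 and 229 TPM in the U87 libraries, 370.4, 393 and 323 TPM in the GSCs libraries and 679, 670.5 and 641 TPM in the Diff libraries. The 3 lines did not overlap, with U87 lowest and Diff cells highest. Its rise from GSCs to Diff cells was 0.88 (SE 0.0809, limma adjusted p = 7.96e-05), the largest among the members. FAM20C, the Golgi kinase that phosphorylates secreted proteins, lies nearest to the end of 7p among the members, from 192969 to 260745. FAM20C values were 55.8, 42.5 and 60.7 TPM in the U87 libraries, 21.3, 25.2 and 17.7 TPM in the GSCs libraries and 31.1, 37.00 and 36.8 TPM in the Diff libraries. Both irradiated lines lay below U87 in every library, with differences of -1.27 in GSCs and -0.58 in Diff cells. Its rise from GSCs to Diff cells, 0.69 (SE 0.158, limma adjusted p = 0.0095), left Diff cells between GSCs and U87.

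RAPGEF5, an exchange factor that activates the small GTPase Rap, was low in all lines, at 1.000, 0.998 and 0.605 TPM in the U87 libraries, 2.07, 2.18 and 2.48 TPM in the GSCs libraries and 0.634, 0.506 and 0.4704 TPM in the Diff libraries. It was above U87 in GSCs, and in Diff cells the libraries overlapped with U87. It fell from GSCs to Diff cells, with a log2 difference of -1.08 (SE 0.154, limma adjusted p = 0.000884). EIF2AK1, the heme-regulated kinase that slows translation by phosphorylating eIF2α, had 109 ± 4.399 TPM in U87, 229.9 ± 17.6 TPM in GSCs and 178 ± 2.98 TPM in Diff cells (SD, n = 3) and fell from GSCs to Diff cells, with a log2 difference of -0.36 (SE 0.0621, limma adjusted p = 0.00226). YWHAG, a 14-3-3 adaptor protein, was below U87 in GSCs and above it in Diff cells without overlap, at 309 ± 7.503 TPM in U87, 277 ± 6.75 TPM in GSCs and 352 ± 10.8 TPM in Diff cells. Its rise was 0.35 (SE 0.045, limma adjusted p = 0.000532). LANCL2, the neighbor of EGFR described below, was also called as higher.

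The remaining members of the group were above U87 in both lines without overlap and were not called between GSCs and Diff cells. GLI3, a transcription factor of the Hedgehog pathway, had the largest difference of these, 0.91 in GSCs and 0.89 in Diff cells, and was measured at 25.6 ± 0.8298 TPM in U87, 48.96 ± 2.18 TPM in GSCs and 48.2 ± 1.95 TPM in Diff cells. SRPK2, a kinase of splicing factors, had 0.74 and 0.64. BRAF, the kinase of the MAPK cascade, had 0.39 and 0.21, at 10.7, 10.3 and 10.2 TPM in the U87 libraries, 13.5, 12.8 and 15.7 TPM in the GSCs libraries and 12.3, 11.2 and 12.98 TPM in the Diff libraries. RAC1, the GTPase of actin protrusions, had 0.33 and 0.35. KRIT1, a scaffold of cell junctions, had 0.24 and 0.23, and 47.9% of its exonic bases are shared with exons of another gene on the same strand, so its reads are uncertain. GENCODE 29 names 9 pseudogenes after RAC1 and 1 each after BRAF and SRPK2, which could take or give reads.

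The members nearest to EGFR on 7p had other patterns than EGFR itself. Other measured genes, which are not members, lie between LANCL2 and CHCHD2. SEC61G, a subunit of the channel that passes new proteins into the endoplasmic reticulum, lies at 54752250 to 54759974 and was measured at 33.6, 27.00 and 29.9 TPM in the U87 libraries, 24.3, 17.1 and 23.9 TPM in the GSCs libraries and 16.6, 15.1 and 19.98 TPM in the Diff libraries. Both irradiated lines lay below U87, with differences of -0.46 in GSCs and -0.78 in Diff cells. Between GSCs and Diff cells it was not called, at -0.31 with a 95% interval of -0.66 to 0.04. LANCL2, a protein of the lanthionine synthetase family at 55365448 to 55433742, was measured at 9.49, 8.66 and 7.61 TPM in the U87 libraries, 9.41, 11.1 and 12.00 TPM in the GSCs libraries and 13.9, 13.8 and 14.97 TPM in the Diff libraries. The GSCs libraries overlapped with U87 and the Diff libraries were all higher, with a rise from GSCs to Diff cells of 0.37 (SE 0.109, limma adjusted p = 0.03). That call was lost without any 1 of the 3 Diff libraries or without the first or second GSCs library, with an adjusted p of up to 0.0995. It was also lost without the filter on low genes (adjusted p = 0.071) and with replicate number as a block (adjusted p = 0.066). CHCHD2, a mitochondrial protein that also regulates transcription, lies at 56101569 to 56106576 and was measured at 276, 239.8 and 265 TPM in the U87 libraries, 341, 358 and 294 TPM in the GSCs libraries and 412, 369 and 367 TPM in the Diff libraries. Both irradiated lines were above U87 without overlap, and CHCHD2 was not called between them, at 0.21 with a 95% interval of 0.01 to 0.41, except in TPM without mitochondrial genes and RN7SL1 (adjusted p = 0.0317). GENCODE 29 names 10 pseudogenes after CHCHD2. Among the members of this stretch of 7p, SEC61G was therefore below U87 in both lines. EGFR was above U87 in GSCs and below it in Diff cells. CHCHD2 was above U87 in both lines, and LANCL2 was above it without overlap in Diff cells.

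**Figure D4:**
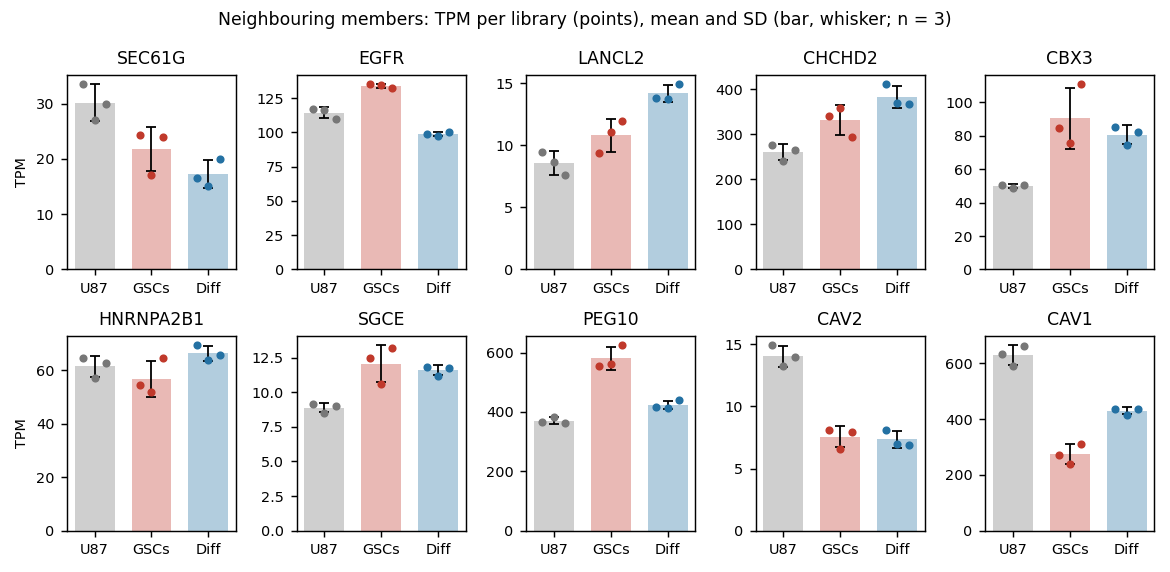
TPM (vertical axes, starting at 0) of 10 neighboring members in U87, GSCs and Diff cells, with each library as a point, the mean as a bar and the SD as a whisker (n = 3). SEC61G, CAV2 and CAV1 are lower in both irradiated lines than in U87, EGFR is highest in GSCs and lowest in Diff cells, and CBX3 is higher than U87 in both while its neighbor HNRNPA2B1 overlaps with U87.

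Chromatin and transcription genes, 10 members, were mostly above U87: 9 were above every U87 library in GSCs (29.3% of all genes and 67.4% of the other protein-coding genes of chromosome 7), with a median of 0.66, and 8 in Diff cells (26.2% and 72.6%), with a median of 0.58. Between the irradiated lines 1 rose (15.0% of all genes), 3 fell (19.8%) and 6 were not called. HDAC9, a class IIa histone deacetylase at 18086949 to 19002416, was measured at 4.71, 5.802 and 3.32 TPM in the U87 libraries, 13.04, 12.3 and 13.4 TPM in the GSCs libraries and 15.01, 14.03 and 14.5 TPM in the Diff libraries. Its differences from U87, 1.34 in GSCs and 1.49 in Diff cells, gave the largest mean of both lines among the members. HDAC9 was not called between GSCs and Diff cells, at 0.15 with a 95% interval of -0.19 to 0.49.

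CBX3, the heterochromatin protein HP1γ, and HNRNPA2B1, a splicing and RNA transport protein, lie head to head on opposite strands, and their annotated ends overlap around 26201162 to 26201529. CBX3 was measured at 50.6, 48.7 and 50.5 TPM in the U87 libraries, 84.6, 75.9 and 111 TPM in the GSCs libraries and 85.1, 74.1 and 82.3 TPM in the Diff libraries, with differences from U87 of 0.83 in GSCs and 0.68 in Diff cells. HNRNPA2B1 was measured at 64.6, 57.02 and 62.9 TPM in the U87 libraries, 54.4, 51.8 and 64.5 TPM in the GSCs libraries and 69.4, 63.7 and 65.7 TPM in the Diff libraries, with -0.11 and 0.11. In CBX3 both irradiated lines were higher than U87 without overlap, and in HNRNPA2B1 both overlapped with U87. Neither was called between GSCs and Diff cells, CBX3 at -0.15 with a 95% interval of -0.43 to 0.13 and HNRNPA2B1 at 0.22 with a 95% interval of 0.02 to 0.42. HNRNPA2B1 was called as higher in Diff cells under each of the other scalings tried, with adjusted p of 0.0333 in TPM without mitochondrial genes and RN7SL1, 0.0134 with median-ratio scaling and 0.0347 with quantile normalization, and without the third GSCs library (adjusted p = 0.00799). GENCODE 29 names 9 pseudogenes after CBX3.

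SGCE and PEG10 are likewise head to head, at 94524204 to 94656572 and 94656325 to 94669695, and both are known as imprinted genes expressed from the paternal copy. SGCE, the membrane protein ε-sarcoglycan, was measured at 9.12, 8.53 and 9.02 TPM in the U87 libraries, 12.5, 10.6 and 13.2 TPM in the GSCs libraries and 11.8, 11.2 and 11.8 TPM in the Diff libraries. PEG10, which stems from a retrotransposon, was measured at 366, 384 and 362 TPM in the U87 libraries, 556, 561 and 625 TPM in the GSCs libraries and 417, 414 and 440.1 TPM in the Diff libraries. Both genes were above U87 in both lines, SGCE by 0.40 and 0.35 and PEG10 by 0.64 and 0.19. PEG10 fell from GSCs to Diff cells, with a log2 difference of -0.45 (SE 0.0591, limma adjusted p = 0.00054). SGCE was not called, at -0.05 with a 95% interval of -0.26 to 0.16.

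KMT2C, a histone H3 lysine methyltransferase near the end of 7q at 152134922 to 152436005, was the chromatin member below U87. It was measured at 29.1, 28.8 and 28.3 TPM in the U87 libraries, 22.5, 23.8 and 23.5 TPM in the GSCs libraries and 24.02, 22.5 and 24.6 TPM in the Diff libraries. Every irradiated library lay under every U87 library, with differences of -0.29 and -0.27, and KMT2C was not called between the irradiated lines, at 0.03 with a 95% interval of -0.10 to 0.16. EZH2, the methyltransferase of the Polycomb complex PRC2, lay above U87 by 0.27 and 0.16, at 29.7 ± 0.936 TPM in U87, 36.1 ± 2.69 TPM in GSCs and 33.5 ± 2.28 TPM in Diff cells.

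BAZ1B, a chromatin remodeling subunit, GTF2I, the transcription factor TFII-I, LIMK1 and EIF4H all lie in the Williams-Beuren region of 7q. BAZ1B had 103 ± 4.46 TPM in U87, 149 ± 16.98 TPM in GSCs and 173 ± 3.52 TPM in Diff cells and GTF2I had 14.2 ± 1.31 TPM in U87, 23.5 ± 0.768 TPM in GSCs and 24.03 ± 1.18 TPM in Diff cells. Both were above U87 without overlap and neither was called between GSCs and Diff cells, although BAZ1B was called without the third GSCs library (adjusted p = 0.00217), with median-ratio scaling (adjusted p = 0.00543), in TPM without mitochondrial genes and RN7SL1 (adjusted p = 0.0219) and with a mean TPM over 5 (adjusted p = 0.047). GTF2I is uncertain, since GENCODE 29 names 16 pseudogenes after it. TRRAP, the scaffold of histone acetyltransferase complexes, had 37.5 ± 0.901 TPM in U87, 59.2 ± 2.68 TPM in GSCs and 68.03 ± 0.884 TPM in Diff cells and rose from GSCs to Diff cells by 0.20 (SE 0.0502, limma adjusted p = 0.015), a call lost without the first Diff or the first GSCs library (adjusted p up to 0.0551). The TRRAP call was also lost in a fit without a trend (adjusted p = 0.0548). CUX1, a homeobox transcription factor, had 27.8 ± 0.736 TPM in U87, 45.5 ± 1.92 TPM in GSCs and 38.97 ± 0.418 TPM in Diff cells and fell, with a log2 difference of -0.22 (SE 0.0518, limma adjusted p = 0.0117). AEBP1, a carboxypeptidase-like protein, was at most 2.66 TPM in any library and fell, with a log2 difference of -0.61 (SE 0.192, limma adjusted p = 0.0372). The AEBP1 call was lost without any 1 library other than the third of GSCs, with an adjusted p of up to 0.115. It was also lost with median-ratio scaling (adjusted p = 0.054), with quantile normalization (0.0598) and without the filter on low genes (0.0939). With replicate number as a block (0.0685) and with only the 6 libraries compared (0.069) it was lost as well.

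Metabolic and mitochondrial members were above U87 without overlap in 4 of 4 in both lines, with medians of 0.90 in GSCs and 1.03 in Diff cells. Of all genes, 29.3% and 26.2% were above U87 in this way, and of the other protein-coding genes of chromosome 7, 67.4% and 72.6%. HIBADH, an enzyme of valine breakdown, was measured at 32.2, 36.5 and 34.9 TPM in the U87 libraries, 71.3, 66.9 and 87.03 TPM in the GSCs libraries and 75.9, 76.8 and 70.4 TPM in the Diff libraries. BLVRA, which reduces biliverdin to bilirubin, was measured at 32.6, 29.5 and 29.8 TPM in the U87 libraries, 55.98, 61.5 and 73.04 TPM in the GSCs libraries and 65.7, 59.8 and 69.9 TPM in the Diff libraries. In both genes every irradiated library was far above U87, with differences of 1.09 and 1.08 for HIBADH and of 1.02 and 1.06 for BLVRA. Neither was called between the irradiated lines, HIBADH at -0.01 with a 95% interval of -0.23 to 0.22 and BLVRA at 0.04 with a 95% interval of -0.19 to 0.27. OGDH, an enzyme of the citric acid cycle, had 121 ± 2.31 TPM in U87, 210.3 ± 12.97 TPM in GSCs and 244 ± 1.68 TPM in Diff cells and rose from GSCs to Diff cells by 0.21 (SE 0.0517, limma adjusted p = 0.0122), which became 0.0503 as an adjusted p in a fit without a trend.

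Sorting and lipid handling had 5 measured members, with medians of 0.95 in GSCs and 0.65 in Diff cells. GLCCI1, listed in this group but known as a gene induced by glucocorticoids, was measured at 7.78, 6.77 and 7.93 TPM in the U87 libraries, 16.9, 18.6 and 21.5 TPM in the GSCs libraries and 5.75, 6.53 and 5.75 TPM in the Diff libraries. GSCs were above U87 and Diff cells below it, in each case without overlap, with differences of 1.23 and -0.28. GLCCI1 fell from GSCs to Diff cells, with a log2 difference of -1.51 (SE 0.109, limma adjusted p = 2.11e-05), the largest change among the members. OSBPL3, a lipid transfer protein of the oxysterol-binding family, was measured at 27.98, 27.5 and 27.1 TPM in the U87 libraries, 50.9, 53.4 and 59.3 TPM in the GSCs libraries and 59.3, 58.2 and 60.01 TPM in the Diff libraries. It was higher than U87 in both lines, by 0.96 and 1.08, and was not called between them at 0.12 with a 95% interval of -0.02 to 0.26, except without the third GSCs library (adjusted p = 0.0129) and under median-ratio scaling (adjusted p = 0.0156).

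SNX13, a sorting nexin, and PNPLA8, a phospholipase, were above U87 in both lines, SNX13 by 0.73 and 0.71 and PNPLA8 by 0.95 and 0.65. PNPLA8 was called as lower in Diff cells than in GSCs only without the second GSCs library (adjusted p = 0.0339). PON2, a paraoxonase, had 34.5 ± 0.376 TPM in U87, 35.3 ± 6.94 TPM in GSCs and 49.3 ± 2.14 TPM in Diff cells, overlapped with U87 in GSCs, and rose from GSCs to Diff cells by 0.49 (SE 0.117, limma adjusted p = 0.0121). The PON2 call was lost without the filter on low genes (adjusted p = 0.0522). SNX10 was listed at 0 in 2 of the 3 libraries of U87 and of Diff cells and reached 0.0760 TPM at most.

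Nuclear envelope, mitosis and genome maintenance held 6 members, all above U87 without overlap in Diff cells, with a median of 0.28, and 4 of them in GSCs, with a median of 0.50. Of all genes, 26.2% and 29.3% were above U87 in this way, and of the other protein-coding genes of chromosome 7, 72.6% and 67.4%. Between the irradiated lines 1 member rose (15.0% of all genes), 3 fell (19.8%) and 2 were not called. SUN1, an inner nuclear membrane protein that couples the nucleus to the cytoskeleton, was measured at 17.7, 15.3 and 16.4 TPM in the U87 libraries, 40.6, 42.8 and 41.1 TPM in the GSCs libraries and 29.4, 27.6 and 27.5 TPM in the Diff libraries. It was above U87 by 1.29 in GSCs and 0.74 in Diff cells, and it fell between them, with a log2 difference of -0.55 (SE 0.0671, limma adjusted p = 0.000392). Exons of another gene share 15.6% of the exonic bases of SUN1.

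ANLN, the cytokinesis protein anillin, was measured at 109, 99.4 and 115 TPM in the U87 libraries, 71.8, 72.7 and 86.6 TPM in the GSCs libraries and 127, 120.1 and 127 TPM in the Diff libraries. GSCs were below U87 and Diff cells above it, with differences of -0.48 and 0.21, and the 3 lines did not overlap. The rise from GSCs to Diff cells was 0.69 (SE 0.0829, limma adjusted p = 0.000341). NUP205, a nuclear pore protein, had 73.6 ± 0.388 TPM in U87, 107 ± 11.1 TPM in GSCs and 91.2 ± 0.925 TPM in Diff cells and fell, with a log2 difference of -0.23 (SE 0.0682, limma adjusted p = 0.0305). POT1, which binds single-stranded telomere DNA, had 17.2 ± 0.978 TPM in U87, 26.5 ± 4.92 TPM in GSCs and 20.1 ± 1.103 TPM in Diff cells and fell, with a log2 difference of -0.37 (SE 0.121, limma adjusted p = 0.0439). NUP205 lost its call without any 1 Diff library or the first U87 library (adjusted p up to 0.0883) and in TPM without mitochondrial genes and RN7SL1 (adjusted p = 0.109). The NUP205 call was also lost without the filter (0.0784), without a trend (0.0724) and with only the 6 libraries compared (0.0747). Among the omissions of a library, POT1 kept its call only without the second GSCs library (adjusted p up to 0.131 without another). POT1 also lost it under the other scalings (adjusted p = 0.0504 with median-ratio scaling, 0.051 with quantile normalization and 0.0892 without mitochondrial genes and RN7SL1), without the filter (0.136), without a trend (0.0609) and with only the 6 libraries compared (0.087). With replicate number as a block the POT1 call was lost too (adjusted p = 0.0633). ORC5, a subunit of the origin recognition complex, and MAD1L1, a spindle checkpoint protein, were not called, with differences from U87 of 0.47 and 0.54 for ORC5 and of 0.24 and 0.25 for MAD1L1.

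Membrane, adhesion and cytoskeleton genes, 8 members, were divided, with medians of 0.13 in GSCs and 0.27 in Diff cells. CAV1 and CAV2, neighbors on 7q that form the coat of caveolae, were both below U87. CAV1, at 116524785 to 116561184, was measured at 634, 589 and 661 TPM in the U87 libraries, 271, 238 and 310.2 TPM in the GSCs libraries and 438, 416 and 435 TPM in the Diff libraries. CAV2, at 116287380 to 116508541, was measured at 14.9, 13.2 and 13.9 TPM in the U87 libraries, 8.102, 6.58 and 7.97 TPM in the GSCs libraries and 8.14, 6.96 and 6.94 TPM in the Diff libraries. No irradiated library reached a U87 library in either gene, with differences of -1.20 and -0.55 for CAV1 and of -0.82 and -0.85 for CAV2. CAV1 rose from GSCs to Diff cells by 0.66 (SE 0.0913, limma adjusted p = 0.000751), and CAV2 was not called, at -0.03 with a 95% interval of -0.27 to 0.21. The pair thus lay below U87 together, and CAV1 was the one of them that was called between the irradiated lines.

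CAPZA2, an actin capping protein and the next member after CAV1, lay above U87 without overlap by 0.32 in GSCs and 0.51 in Diff cells, and was called between them only without the third GSCs library (adjusted p = 0.0246). BBS9, a subunit of the BBSome of cilia, had 9.01 ± 0.293 TPM in U87, 18.8 ± 2.598 TPM in GSCs and 13.3 ± 0.846 TPM in Diff cells and fell from GSCs to Diff cells, with a log2 difference of -0.46 (SE 0.101, limma adjusted p = 0.00781). AKAP9, a scaffold of protein kinase A at the centrosome and Golgi, had 7.98 ± 1.06 TPM in U87, 8.57 ± 0.777 TPM in GSCs and 12.9 ± 0.976 TPM in Diff cells and rose by 0.54 (SE 0.114, limma adjusted p = 0.0066). The sign of AKAP9 in GSCs against U87 changed without the second U87 library. MKLN1, the protein muskelin, and PODXL, a sialomucin of the cell surface, overlapped with U87 in GSCs and had differences from it of 0.16 and 0.20 for MKLN1 and of 0.11 and -0.03 for PODXL. Exons of another gene, on the opposite strand, share 21.4% of the exonic bases of MKLN1.

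Protein folding, import and degradation held 5 members, with medians of 0.16 in GSCs and 0.33 in Diff cells. HSPB1, the small heat shock protein Hsp27, was the most abundant member and was measured at 878, 889 and 862 TPM in the U87 libraries, 1051, 1119.6 and 801 TPM in the GSCs libraries and 1668, 1652 and 1608 TPM in the Diff libraries. The GSCs libraries overlapped with U87 and the Diff libraries were all higher, by 0.91 at the mean. HSPB1 rose from GSCs to Diff cells by 0.74 (SE 0.111, limma adjusted p = 0.00109). COPS6, a subunit of the COP9 signalosome, had 97.05 ± 8.88 TPM in U87, 94.9 ± 6.09 TPM in GSCs and 122 ± 5.46 TPM in Diff cells and rose by 0.36 (SE 0.078, limma adjusted p = 0.00716). The COPS6 difference of -0.03 in GSCs against U87 changed sign without the third U87 library or the third GSCs library. DNAJB6, a co-chaperone, was above U87 by 0.33 and 0.41. PSMA2, a subunit of the proteasome core, was above U87 by 0.50 and 0.24, but 34.6% of its exonic bases are shared with other exons. SEC61G, described above, was called as lower in Diff cells than in GSCs only without the second GSCs library (adjusted p = 0.0268).

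RNA processing and translation, 4 members, was the group nearest to U87 in GSCs, with a median of 0.08 and an overlap in 4 of 4. In Diff cells the median was 0.28, and 3 of 4 were higher without overlap, beside 26.2% of all genes and 72.6% of the other protein-coding genes of chromosome 7. TYW1, an enzyme of tRNA modification, had 13.4 ± 0.889 TPM in U87, 14.3 ± 0.576 TPM in GSCs and 18.1 ± 0.902 TPM in Diff cells and rose from GSCs to Diff cells by 0.32 (SE 0.0749, limma adjusted p = 0.0103). EIF4H, a cofactor of the translation initiation helicase, had 149 ± 7.83 TPM in U87, 157 ± 7.92 TPM in GSCs and 183 ± 9.74 TPM in Diff cells and rose by 0.22 (SE 0.0626, limma adjusted p = 0.0228), a call lost without the third or the first Diff library or the first GSCs library (adjusted p up to 0.0812). The EIF4H call was also lost without the filter on low genes (adjusted p = 0.0583) and without a trend (adjusted p = 0.0645). TRA2A, a splicing regulator, was not called, at 0.15 with a 95% interval of -0.06 to 0.35, except under median-ratio scaling (adjusted p = 0.0423).

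Other genes of chromosome 7 were examined in a list of 108 known genes, of which 78 had a mean TPM over 1. Their medians were 0.40 in GSCs and 0.33 in Diff cells against U87, with 54 and 55 of 78 above 0, and -0.02 in Diff cells against GSCs. From GSCs to Diff cells 18 rose, 23 fell and 37 were not called, so that 52.6% were called, beside 34.8% of all genes and 48.5% of the other protein-coding genes of the chromosome. Within the list, the largest falls were those of NOS3, the endothelial nitric oxide synthase (-2.76), IGFBP3, which binds insulin-like growth factors (-2.69), INSIG1, a brake on cholesterol synthesis (-1.85), HGF, the ligand of MET (-1.62), and NAMPT, an enzyme of NAD synthesis (-1.52). The largest rises in the list were those of the homeobox gene HOXA3 (1.74), the cell cycle kinase CDK6 (1.04), the actin crosslinker FLNC (0.95), the aldose reductase AKR1B1 (0.93) and the adaptor GRB10 (0.87). The limma adjusted p of these 10 lay between 1.82e-06 and 0.000689. INSIG1 was at 210.5 ± 28.7 TPM in U87, 943 ± 12.9 TPM in GSCs and 261 ± 13.2 TPM in Diff cells, while CDK6 was at 27.5 ± 0.882, 8.07 ± 0.916 and 17.6 ± 1.28 TPM (SD, n = 3). Some chromosome 7 genes outside the list had larger differences between the irradiated lines, such as ATG9B (-4.31) and CCL26 (3.60). Genes of the same chromosome thus changed in both directions between the irradiated lines.

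The labels of the lines were checked against markers. CDKN2A, CDKN2B and MTAP, which are deleted in U87, had at most 0.176 TPM in any library of any line. SOX2, a stem cell factor, averaged 0.879 TPM in GSCs against 0.0383 TPM in U87 and 0.153 TPM in Diff cells, and FABP7 averaged 4.91 TPM against 0.731 and 2.86 TPM, but NES was highest in U87 (33.0 TPM, with 22.6 TPM in GSCs and 13.5 TPM in Diff cells). The 6 stem cell markers summed to 430.2 to 456 TPM in U87, 441 to 511 TPM in GSCs and 308 to 324 TPM in Diff cells, mostly from CD44. Of other cell types, 4 astrocyte markers summed to at most 2.68 TPM with AQP4 at or near 0, 4 neuron markers to 10.2 to 13.7 TPM in U87, 12.7 to 13.2 TPM in GSCs and 26.5 to 27.5 TPM in Diff cells with DCX at or near 0, 4 microglia markers to 15.8 to 19.1 TPM in U87, 6.65 to 7.36 TPM in GSCs and 10.8 to 13.04 TPM in Diff cells, mostly from CSF1R and with PTPRC at most 0.137 TPM, and 3 endothelium markers to 2.66 to 4.41 TPM in U87, 16.4 to 18.9 TPM in GSCs and 4.13 to 5.55 TPM in Diff cells. The neuron sum in Diff cells was mostly MAP2, at 21.7 TPM against 8.22 TPM in GSCs, while TUBB3 was at 5.22 and 4.66 TPM. The endothelium sum in GSCs was mostly VWF (11.4 TPM) and PECAM1 (6.25 TPM), with CDH5 at 0.312 TPM. The libraries came from cultures of U87 and of lines derived from it, not from tissue. The source of these marker values was not tested. In such bulk samples fewer cells that express a marker and less of its RNA per cell cannot be told apart. Mitochondrial genes and the noncoding RNA RN7SL1 together took 35.7% to 37.6% of TPM in U87, 35.7% to 36.5% in GSCs and 38.5% to 39.2% in Diff cells. Depth is not kept in TPM and is unknown here, and no pair of libraries held identical values.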

How the data were processed

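Expression in 3 libraries each of U87, GSCs and Diff cells was deposited by the authors in 1 table, as log2(TPM + 1) values that ran from 0 to 16.6. Per the submitters' processing notes, the tools were FastQC 0.11.9, Trimmomatic 0.39, HISAT2 2.2.1, featureCounts 2.0.5 and R 4.2.0, with GRCh38. The annotation release, the strand setting of the counting and the step from counts to TPM are not given in the sources used here. Sample records describe Magzol extraction, rRNA removal and directional libraries, whereas the study's methods describe Trizol and oligo(dT) beads.

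The members and all gene lists were chosen with earlier results of these data known. Genes with a mean TPM over 1 entered 1 limma model (version 3.58.1, R 4.3.3) of the 9 libraries by cell line, with eBayes allowing a trend, with Benjamini-Hochberg adjustment over all of them and calls at an adjusted p under 0.05. A log2 difference is on the log2(TPM + 1) scale and understates the change of low genes. Differences from U87 were not tested, since they chose the members. Counting error could not be computed, because TPM keeps no depth, so the spread between 3 libraries is the only measure of precision. The values of every library are given for EGFR and its neighbors, for 3 other neighbor pairs, for the 5 members with the largest and the 5 with the smallest mean difference from U87, and for the 5 called members with the largest change from GSCs to Diff cells.

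Of the genes, 53492 were placed by GENCODE 29, whose coordinates are printed, and promoter windows came from RefSeq (GRCh38.p14). On simulated data modeled on this comparison, the fit was checked against known changes. Alternatives covered the pseudocount, filter, scaling, trend, samples, replicate numbers and the omission of each library. A test of read counts was not run, as the table holds none. Python 3.11.15, pandas 2.3.3, numpy 2.4.6, scipy 1.17.1 and matplotlib 3.10.9 were used.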

Additional observations from a re-analysis of the deposited data

Results flagged for a closer look

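In 6 members the difference from U87 had opposite signs in GSCs and in Diff cells, and the difference between these lines was called by limma. The log2 difference of Diff cells minus GSCs was -1.51 for GLCCI1, -1.08 for RAPGEF5 and -0.44 for EGFR, which were above U87 in GSCs and below it in Diff cells. It was 0.69 for ANLN, 0.36 for COPS6 and 0.35 for YWHAG, which were below U87 in GSCs and above it in Diff cells. The adjusted p-values of these 6, as given above, stayed under 0.05 with any 1 library left out, but the sign of COPS6 in GSCs against U87 changed without the third U87 or the third GSCs library. The Diff libraries of RAPGEF5 and the GSCs libraries of COPS6 overlapped with U87. Opposite signs against U87 by themselves widen the difference between the irradiated lines, so the calls add no separate support to this pattern. The share of all genes with it is not given here. Other genes of chromosome 7 had it too, such as NAMPT (1.28 in GSCs and -0.24 in Diff cells) and AKR1B1 (-0.64 and 0.29), both called.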

How the results depend on the processing

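The median of the members in Diff cells against U87, 0.38, became 0.43 with log2(TPM + 0.1), 0.48 with a mean TPM over 5, 0.43 with median-ratio scaling and 0.43 in TPM without mitochondrial genes and RN7SL1. The other medians of the members moved by less than the spread between libraries, also with only the 50 members that share under 10% of their exonic bases with other genes, an alternative chosen after seeing the data. With a log2 difference over 1 required, 0 members rose and 2 fell from GSCs to Diff cells. The 14 rises and 11 falls (56.0% rises) became 18 and 9 (66.7%) with median-ratio scaling. Without single libraries there were 11 to 18 rises and 8 to 12 falls, with the highest count of rises without the third GSCs library. These moves were not particular to the members. The median of all genes in Diff cells against GSCs, -0.056, became -0.002 with median-ratio scaling and -0.032 without the third GSCs library. The shares of all genes called under these settings are not given here. At an adjusted p under 0.05 alone, 17 of the 25 called members stayed called under every alternative that tested them, among them RAPGEF5, which a mean TPM over 5 left out, and 19 stayed called under every omission of a library. Replicate numbers did not pair the libraries: deviations from the group means correlated at -0.0416 to 0.0489 between libraries of the same number, and the fit with a replicate block gave 13 rises and 9 falls. Depth is unknown in TPM, so the part of counting error in the spread between libraries is unmeasured for the low members MAD1L1, RAPGEF5 and AEBP1. DESeq2 was not run, as the table holds no counts.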
